A study of Mus musculus with 6 samples.

Results

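The clustered protocadherins are 58 of the 24346 gene symbols measured in these mouse retinas: 14 of the alpha cluster, 22 of the beta cluster and 22 of the gamma cluster, taken by symbol and not by any measured value. Retinal mRNA was sequenced in 6 libraries, 3 labelled Cyfip2 CKO (conditional knockout) and 3 labelled Cyfip2 WT (wild type), to ask which transcripts differ when this gene is deficient in the retina. Both groups are whole retina. The sources used here name no Cre driver, allele, age or strain, and do not say whether each library is a separate animal, so p-values measure only the spread between these libraries, which may be technical. Values are FPKM, which divides the fragments of a gene by transcript length and by the fragments of its library, so levels of genes of different length can be set side by side.

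Protocadherins of the 3 clusters are cadherin-like membrane proteins of neurons. Each neuron uses its own combination of them, chosen by promoter choice, and the proteins recognise identical copies on a facing membrane, so that branches of the same cell can tell self from other. In the retina the gamma cluster is known for self-avoidance of starburst amacrine cell dendrites and for the survival of neurons. The last variable exons of the alpha and gamma clusters encode the C-type members, which are not chosen at random in the way of the other, alternate, members. The cytoplasmic tail that alpha members share is known to carry a short peptide that binds the WAVE regulatory complex, of which the Cyfip2 protein is a subunit.

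The clusters lie one after the other on chromosome 18 of GRCm38, all on the plus strand. In GENCODE M21 the alpha gene models span 36930184 to 37187661, the beta models 37264938 to 37524479 and the gamma models 37661793 to 37841873. Each alpha model joins a variable first exon to the same 3 constant exons of 59, 89 and 2712 bases. Gamma models do so with constant exons of 59, 89 and 1971 bases. The constant exons make up 53.5% of the median alpha transcript and 44.9% of the median gamma transcript, whereas the 22 beta models share none and 18 of them have a single exon. Reads from a constant exon cannot be placed on 1 member by sequence, so the values of single alpha and gamma members rest in part on how the authors' software divided those reads. Close paralogs in all 3 clusters may also share reads. Cluster sums depend less on that division, and sums and members are both given here.

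The label check and the tissue check concern all libraries. Cyfip2 was at 8.33, 10.2 and 11.2 FPKM in CKO 1 to 3 and at 35.5, 63.1 and 62.3 FPKM in WT 1 to 3 (log2 change -2.29, limma adjusted p = 0.0239). Without CKO 1, CKO 2, CKO 3, WT 2 or WT 3 that p was 0.109, 0.112, 0.117, 0.197 or 0.0663. Defining markers of retina were present, with summed rod markers between 9149 and 9719 FPKM in the CKO and between 9460 and 10097 FPKM in the WT libraries. The summed 6 starburst amacrine markers stood at 35.9 to 38.2 FPKM in CKO and 38.6 to 42.4 FPKM in WT, the 10 ganglion cell markers at 670 to 696 against 733 to 795 FPKM, and the 5 amacrine markers at 330.2 to 334 against 285 to 304 FPKM. Lens markers were uneven, and Cryaa, a lens crystallin, reached 103 FPKM in WT 2, while the others held 9.22 to 35.1 FPKM. No member of those marker lists passed the test across all genes. In bulk tissue, fewer cells of a type and less RNA per cell cannot be told apart.

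All clusters were expressed in both groups, with gamma highest. Averaged over the 6 libraries, the gamma members summed to 164 FPKM, the beta members to 97.5 FPKM and the alpha members to 35.0 FPKM. Gamma thus held 54.5% to 55.8% of the clustered protocadherin signal in every library, beta 32.3% to 33.4% and alpha 11.4% to 12.1%. Of the 58 members, 55 had a mean of at least 1 FPKM, and between 54 and 56 reached it in each library. The 3 below it were Pcdha1, Pcdha8 and Pcdhb1. Only Pcdhb1 was listed at 0 anywhere, in CKO 3.

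**Figure D1:**
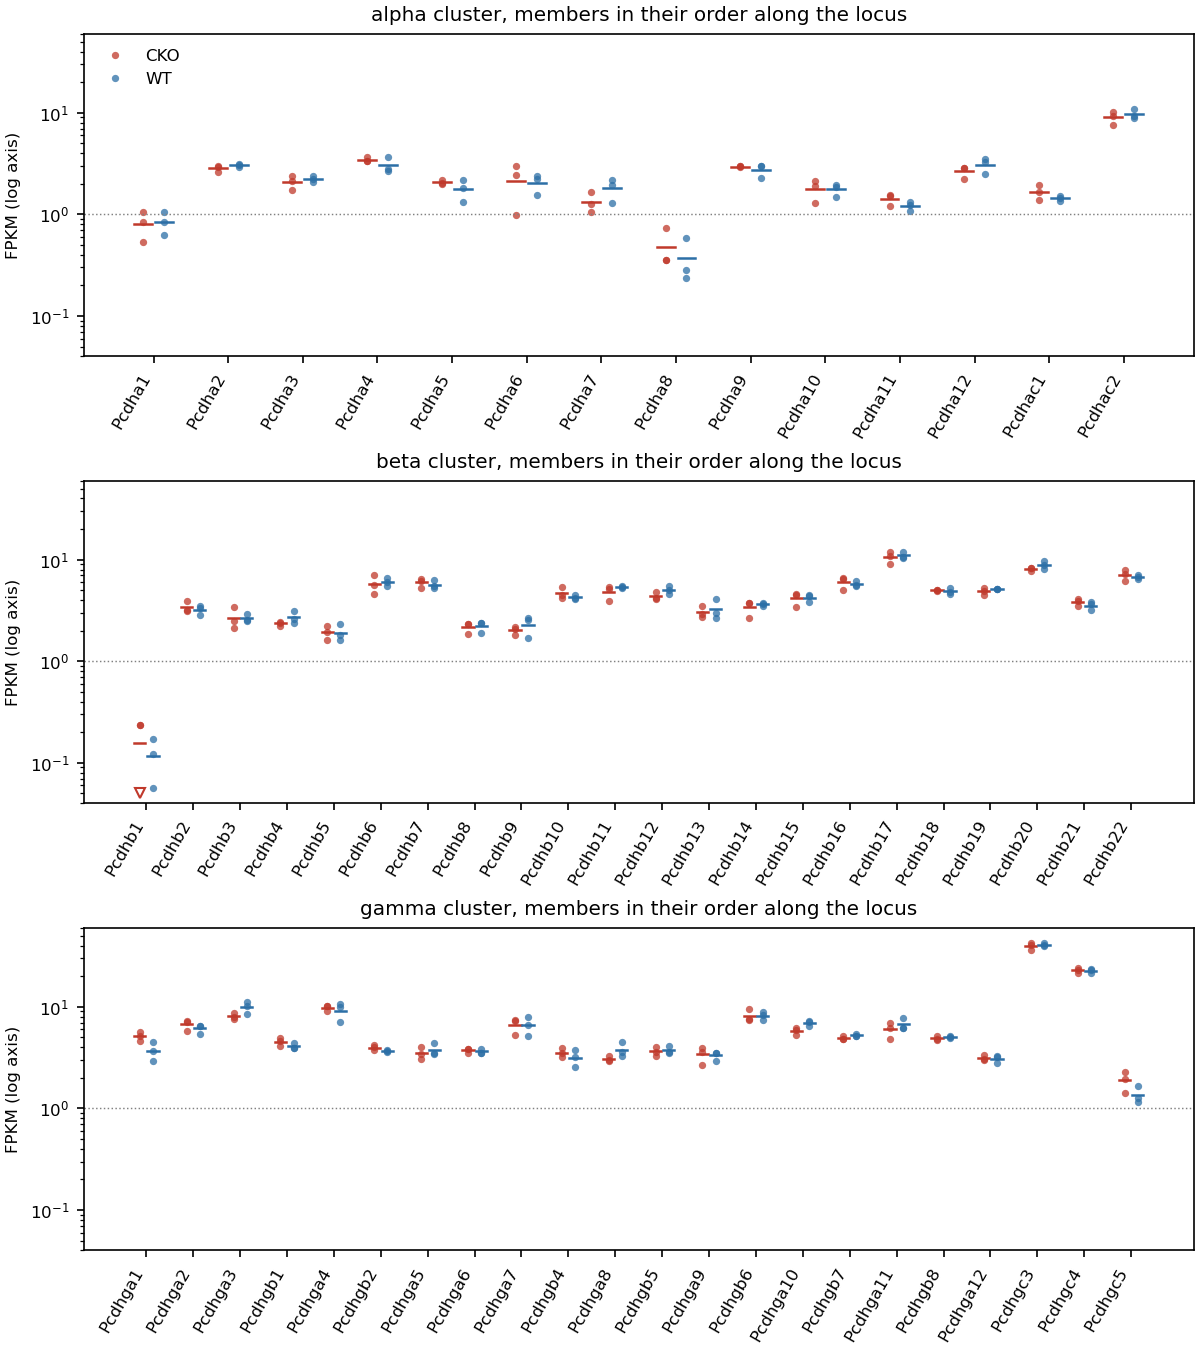
FPKM (log axis) of each of the 58 members in each library, in their order along the locus, with red points for the 3 CKO and blue points for the 3 WT libraries and short lines for group means; the dotted line marks 1 FPKM and the open triangle a value of 0. Pcdhgc3 and Pcdhgc4 stand above every other member in both groups, and Pcdhb1 lies below the rest.

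The C-type members differed widely in level among themselves. Pcdhgc3, which is known to promote dendrite branching, was the most abundant member, at 36.4, 42.1 and 40.6 FPKM in CKO 1 to 3 and 42.5, 39.3 and 40.6 FPKM in WT 1 to 3. Pcdhgc4, the member tied by knockout work to neuron survival, came next, at 23.0, 21.3 and 24.1 FPKM in CKO and 21.4, 23.0 and 23.4 FPKM in WT. Pcdhac2, known for the spacing of serotonin axons, was at 7.57, 10.2 and 9.39 FPKM in CKO and 10.96, 9.37 and 8.97 FPKM in WT. These 3 members had overlapping groups. Their log2 differences of CKO minus WT were -0.04 for Pcdhgc3 (95% confidence interval -0.19 to 0.11), 0.01 for Pcdhgc4 (-0.14 to 0.16) and -0.10 for Pcdhac2 (-0.37 to 0.17), all by limma on log2(FPKM + 1). With each library left out in turn the sign of each of these 3 turned at least once.

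The other C-type members were low. Pcdhac1 was at 1.37, 1.97 and 1.67 FPKM in CKO 1 to 3 and 1.52, 1.34 and 1.45 FPKM in WT 1 to 3. Pcdhgc5, a late-expressed synaptic member, was at 2.29, 1.43 and 1.96 FPKM in CKO and 1.16, 1.65 and 1.28 FPKM in WT. In both genes 2 of the CKO libraries lay above all WT libraries, and the third lay within the WT range. The log2 difference was 0.13 for Pcdhac1 (interval -0.16 to 0.42) and 0.29 for Pcdhgc5 (-0.06 to 0.64, limma adjusted p = 0.711). With 1 library left out, the log2 difference of Pcdhac1 ran from 0.05 without CKO 2 to 0.21 without CKO 1, and that of Pcdhgc5 from 0.19 without CKO 1 to 0.41 without CKO 2. The share of C-type members in the gamma sum was 38.2%, 40.6% and 39.5% in CKO 1 to 3 and 40.6%, 37.9% and 39.5% in WT 1 to 3. In the alpha sum it was 26.2%, 35.3% and 30.9% in CKO and 35.1%, 29.7% and 30.8% in WT. Both shares overlapped between the groups.

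Alternate alpha members were the lowest group, with means from 0.424 FPKM for Pcdha8 to 3.26 FPKM for Pcdha4. The median over the 12 was 2.01 FPKM. Pcdha4 was at 3.36, 3.33 and 3.71 FPKM in CKO 1 to 3 and 3.69, 2.68 and 2.77 FPKM in WT 1 to 3. Pcdha2, Pcdha12, Pcdha9 and Pcdha3 followed, with means of 2.95, 2.87, 2.86 and 2.16 FPKM. Pcdha8 was at 0.731, 0.358 and 0.352 FPKM in CKO and 0.239, 0.581 and 0.285 FPKM in WT, a range too wide to separate the groups. The alternate alpha sum was 25.1, 22.4 and 24.7 FPKM in CKO and 23.1, 25.4 and 23.4 FPKM in WT, with the groups overlapping.

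Beta members ranged from 0.137 FPKM for Pcdhb1 to 10.8 FPKM for Pcdhb17, with a median of 4.34 FPKM. Pcdhb1 is one of the few members whose promoter is known to lack the conserved element that the others share. It was at 0.234, 0.237 and 0 FPKM in CKO 1 to 3 and 0.123, 0.056 and 0.173 FPKM in WT 1 to 3, so that the groups overlapped near the limit of detection. Pcdhb17 was at 9.11, 11.9 and 10.9 FPKM in CKO and 11.9, 10.4 and 10.7 FPKM in WT. Pcdhb20, Pcdhb22, Pcdhb16 and Pcdhb6 came next, with means of 8.43, 6.92, 5.92 and 5.92 FPKM. Levels were higher towards the gamma end of the cluster, with a Spearman correlation of 0.63 between order in the locus and mean level over the 22 beta members, which share their libraries. The corresponding value was -0.13 over the 12 alternate alpha members, -0.5 over the 12 gamma A members and 0.54 over the 7 gamma B members.

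Gamma A members had means of 3.12 to 9.52 FPKM and gamma B members 3.36 to 8.19 FPKM. No gamma member was below 1 FPKM in any library. Pcdhga4 was at 10.2, 9.17 and 10.1 FPKM in CKO 1 to 3 and 7.15, 9.88 and 10.6 FPKM in WT 1 to 3, and Pcdhga12 was the lowest gamma A member. Pcdhga7 and Pcdhga2 had means of 6.62 and 6.43 FPKM. Pcdhgb6 led the gamma B members, at 7.41, 7.60 and 9.61 FPKM in CKO and 7.39, 8.23 and 8.91 FPKM in WT. Pcdhgb7, Pcdhgb8, Pcdhgb1 and Pcdhgb2 had means of 5.101, 4.97, 4.31 and 3.82 FPKM, and Pcdhgb4 was lowest. RefSeq lists Pcdhgb8 as a transcribed pseudogene, yet its level was among the steadiest, at 4.74 to 5.13 FPKM over all libraries.

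Placed in order of mean level, neighbouring members mostly had overlapping ranges, which sorting by level itself favours. In 53 of 57 neighbouring pairs the ranges over the 6 libraries overlapped. The 4 pairs that stood apart were Pcdhgc3 above Pcdhgc4, Pcdhgc4 above Pcdhb17, Pcdha11 above Pcdha1, and Pcdha8 above Pcdhb1. Gaps were very small for Pcdha11 (lowest 1.08 FPKM) over Pcdha1 (highest 1.05 FPKM). The same held for Pcdha8 (lowest 0.239 FPKM) over Pcdhb1 (highest 0.237 FPKM), at levels where no counting error could be set. The profile over the 58 members was alike in all libraries. Pearson's r of log2(FPKM + 1) was 0.962 to 0.979 within groups (6 pairs) and 0.964 to 0.977 between groups (9 pairs), a description across members that share a locus and a method of read division.

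No clustered protocadherin changed past the threshold in CKO retina. Of 55 members tested, all those with a mean of at least 1 FPKM, 27 lay above 0 and 28 below 0, and 0 were called by limma at an adjusted p of 0.05. Over all 13215 genes tested, 0.0227% were called. The median log2 difference was -0.00016 over the members and -0.0016 over all tested genes. In the alpha cluster 6 members lay above 0 and 6 below, in the beta cluster 9 and 12, and in the gamma cluster 12 and 10. At an unadjusted limma p under 0.05 there were 3 of the 55 members, a smaller share than the 7.88% of all genes. The smallest limma adjusted p of a member was 0.562. The count of members at an unadjusted limma p under 0.05 was 0 without CKO 1 and 1 without WT 3. It was 2 without CKO 2, CKO 3 or WT 2, and 4 without WT 1. The libraries of the groups did not overlap for 2 of the 55 (3.64%), against 13.9% of all genes. None of the 17 alternative fits called a member, and the smallest adjusted p in any of them was 0.391.

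The intervals give the size of change that these libraries could miss. For 50 of the 55 members the 95% confidence interval lay within 0.5 on the log2 scale on both sides, and for 15 it lay within 0.3. The widest was that of Pcdha6, at 2.99, 0.978 and 2.45 FPKM in CKO 1 to 3 and 1.55, 2.38 and 2.23 FPKM in WT 1 to 3, with a standard error of 0.26. Differences on this scale understate the change of low members. In a simulation on 13215 genes for CKO against WT, 11% of genes changed by 0.25 (log2) were recovered, 67.4% at 0.5 and 96% at 1. Each simulated set held far more changed genes than the 3 called in these data, which eases the adjusted threshold. Its changed genes were drawn from all levels, not from the members. In the data, the amacrine marker Tfap2b had an unadjusted limma p of 0.000316 and a limma adjusted p of 0.196. The simulated rates therefore probably overstate recovery for the members.

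**Figure D2:**
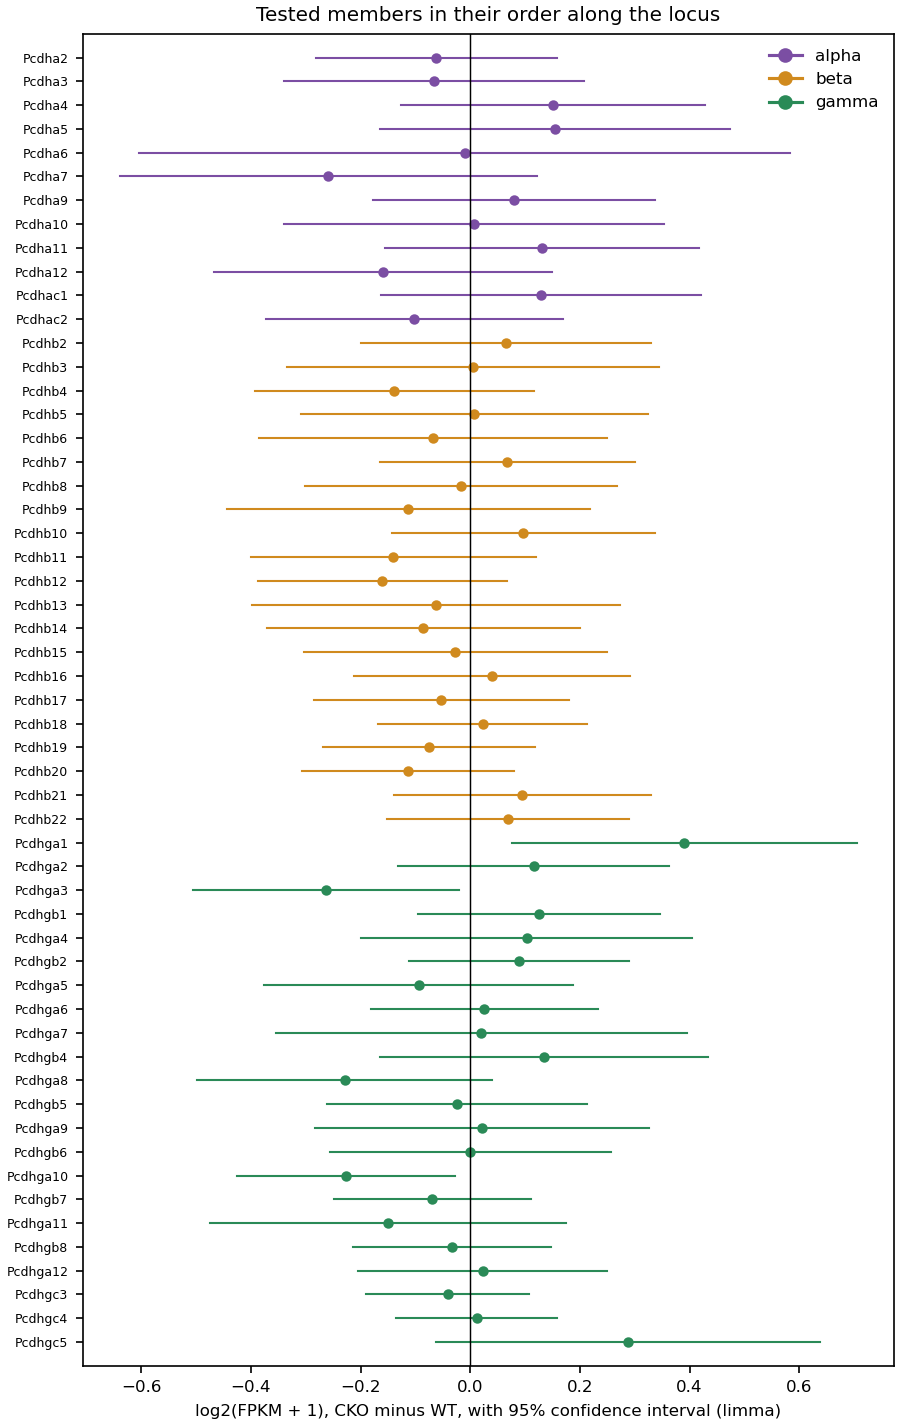
Difference of CKO minus WT on the log2(FPKM + 1) scale (points) with 95% confidence intervals from limma (lines), unadjusted, for the 55 tested members in their order along the locus. The intervals of all but Pcdhga1, Pcdhga3 and Pcdhga10 cross 0.

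The 3 members with an unadjusted p under 0.05 were gamma A members, and they did not point in a single direction. Pcdhga1, the first variable exon of the gamma cluster, was at 5.64, 4.58 and 5.21 FPKM in CKO 1 to 3 and 3.69, 4.51 and 2.95 FPKM in WT 1 to 3. Every CKO library lay above every WT library, with the gap between CKO 2 and WT 2 being small. The log2 difference was 0.39 (SE 0.14, limma adjusted p = 0.562), and in the 16 alternative fits that kept the gene the limma adjusted p ran from 0.49 to 0.799. Pcdhga10 was at 5.31, 5.90 and 6.22 FPKM in CKO and 7.21, 6.50 and 7.17 FPKM in WT, so that every CKO library lay below every WT library. Its log2 difference was -0.23 (SE 0.086, limma adjusted p = 0.592). Pcdhga3 was at 7.91, 7.57 and 8.78 FPKM in CKO and 10.1, 11.2 and 8.52 FPKM in WT, where CKO 3 lay above WT 3. Its log2 difference was -0.26 (SE 0.11, limma adjusted p = 0.601). Pcdhga3 and Pcdhga1 lie in the same stretch of the cluster with Pcdhga2 between them, and Pcdhga2 was at 7.09, 5.84 and 7.26 FPKM in CKO and 6.48, 6.49 and 5.41 FPKM in WT.

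Summed by cluster, the mean level was slightly lower in CKO than in WT libraries in all 3 clusters, and the groups separated only in the beta sum. The alpha sum was 34.1, 34.6 and 35.8 FPKM in CKO 1 to 3 and 35.6, 36.1 and 33.9 FPKM in WT 1 to 3, a difference of the means of -1.001%. The gamma sum was 161.8, 159.6 and 168.6 FPKM in CKO and 160.5, 168.8 and 165.2 FPKM in WT, a difference of -0.909%. Both sums overlapped between the groups. The direction of the alpha difference turned without CKO 1 (0.0248%), without WT 2 (0.292%) and without Pcdhac2 (1.38%). That of gamma turned without CKO 2 (0.217%) and without WT 2 (0.312%).

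The beta sum was 95.4, 96.4 and 97.6 FPKM in CKO and 98.5, 99.1 and 98.1 FPKM in WT. Each CKO library lay below each WT library, by means of 96.5 ± 1.12 and 98.6 ± 0.5 FPKM (SD, n = 3 each). The difference of -2.10% ran from -2.69% to -1.55% with each library left out in turn. The highest CKO and the lowest WT library, CKO 3 and WT 3, were close together. Of the 21 tested beta members, 0 had groups that did not overlap, against 13.9% of all tested genes. Of these beta members, 9 lay above 0 and 12 below. Sums were given no test, because the members were chosen with earlier results of these data known. Among the marker lists, the summed markers of starburst, ganglion, horizontal, cone, bipolar and endothelial cells were lower in every CKO than in every WT library. The endothelial gap was narrow, with 31.3 FPKM the highest CKO and 31.6 FPKM the lowest WT sum. Those of amacrine cells were higher. The sums of rod, Muller, pigment epithelium, lens, microglia, and astrocyte and optic nerve markers overlapped between the groups. Such sums rest mostly on the abundant genes of a list, as with Calb1, at a mean of 30.2 FPKM, among the horizontal markers. Among the starburst markers Sox2 was highest, at a mean of 12.2 FPKM. Of the tested starburst markers, Chat, Sox2 and Megf10 overlapped between the groups, and Slc18a3 and Slc5a7 were lower in every CKO library. Of tested ganglion markers 9 lay below 0 and 1 above, of horizontal markers 3 and 1, and of bipolar markers 2 and 2. The part of these cell types in the beta sum was not tested.

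**Figure D3:**
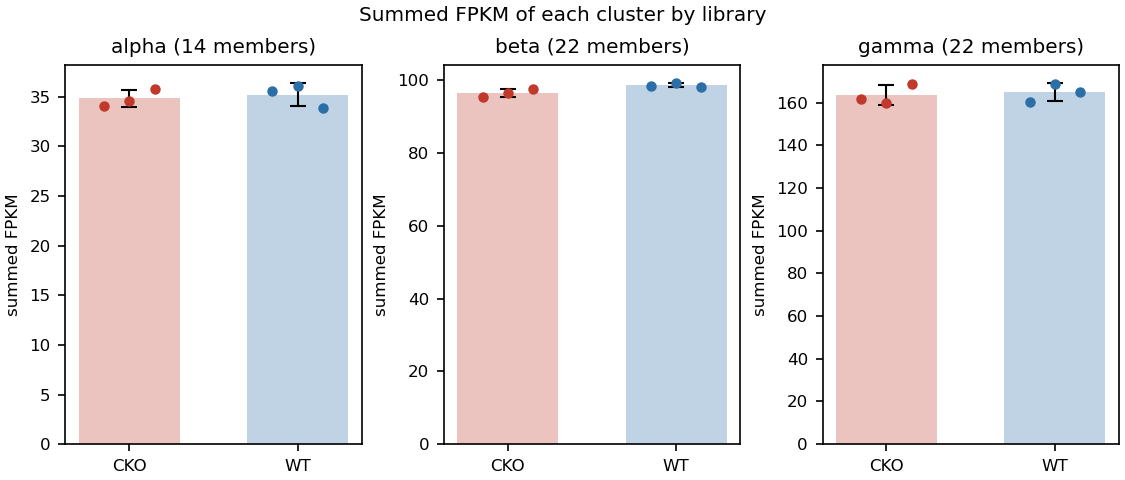
Summed FPKM of the alpha, beta and gamma members in each library (points), with the group mean (bar, from 0) and SD (error bar) for 3 CKO and 3 WT libraries. The beta sums of 95.4 to 97.6 FPKM in CKO lie below those of 98.1 to 99.1 FPKM in WT, and the alpha and gamma sums overlap.

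Relative to their level, the sums varied less than single members, which adding many members brings about by averaging alone. The coefficient of variation within groups was 0.889% for the beta sum, 2.94% for the alpha sum and 2.71% for the gamma sum, while the median over single members was 11.1%, 14.9% and 11.3%. The variance of the beta sum was 0.117 times the sum of its members' variances, against 0.329 for alpha and 1.196 for gamma, where 1 is the value for members that vary independently. Each of these ratios comes from 3 libraries a group and is a description. Single members were about as variable as other genes of their level. Between 1 and 10.8 FPKM the median SD within groups on the log2 scale was 0.141 for 53 members and 0.137 for all 5946 tested genes. By cluster it was 0.155 for alpha, 0.133 for beta and 0.143 for gamma members.

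**Figure D4:**
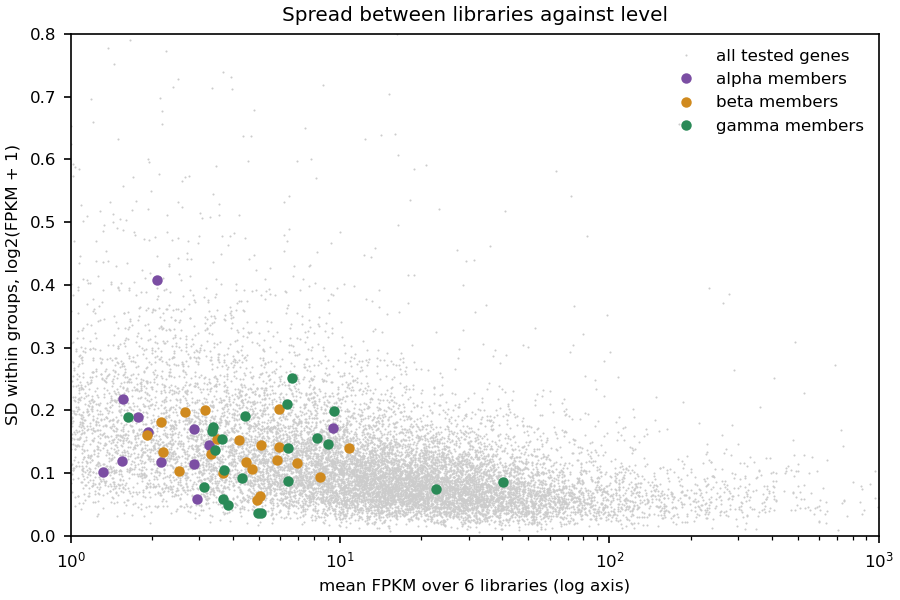
SD within groups on the log2(FPKM + 1) scale against mean FPKM over the 6 libraries (log axis) for all tested genes (grey) and the tested alpha, beta and gamma members (coloured); 103 genes lie outside the axes, which end at 0.8 and 1000 FPKM. Members lie among other genes of their level, and Pcdha6 is the most variable of them.

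Genes known to control or carry out protocadherin functions were also compared. The list held 19 genes of expression control and 15 of signalling and processing, and 32 of the 34 were tested. It comprised 16 genes above 0 and 16 below 0, with a median log2 difference of 0.0069. By limma 0 passed at an adjusted p of 0.05, and 0 had an unadjusted p under 0.05. Ctcf, whose protein binds protocadherin promoters and enhancers and loops them together, was at 35.3, 35.7 and 33.3 FPKM in CKO 1 to 3 and 32.8, 32.0 and 33.8 FPKM in WT 1 to 3. The groups overlapped only through CKO 3 and WT 3 (log2 difference 0.08, limma adjusted p = 0.765). Wapl, listed as Wapal and encoding the factor that releases cohesin from DNA, was at 23.7, 28.1 and 28.5 FPKM in CKO and 27.5, 31.0 and 31.0 FPKM in WT (-0.15, limma adjusted p = 0.715). Dnmt1, the maintenance DNA methyltransferase, had means of 22.2 ± 0.633 FPKM (SD, n = 3) in the CKO and 20.8 ± 1.47 FPKM in the WT libraries, a log2 difference of 0.09 (limma adjusted p = 0.775). These had the smallest p values of the list.

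The genes between and beside the clusters did not pass the test either. Of 14 neighbours fixed by name, 11 were tested, 9 above 0 and 2 below 0, with a median log2 difference of 0.051, and by limma 0 were called and 0 had an unadjusted p under 0.05. Taf7, a subunit of the general transcription factor TFIID that lies between the beta and gamma clusters, was at 7.10, 7.08 and 7.15 FPKM in CKO 1 to 3 and 7.26, 6.47 and 7.29 FPKM in WT 1 to 3. Its neighbour Slc25a2, a mitochondrial carrier, was at 0 to 0.513 FPKM and was not tested. Diaph1, listed as Diap1 and encoding an actin-nucleating formin, is the gene next to the gamma cluster. It was at 7.29, 8.02 and 7.02 FPKM in CKO and 8.53, 8.05 and 7.31 FPKM in WT (log2 difference -0.09, limma adjusted p = 0.851). Hdac3, a histone deacetylase, had means of 44.7 ± 4.28 FPKM (SD, n = 3) in the CKO and 44.4 ± 2.47 FPKM in the WT libraries.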

How the data were processed

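Per the labels' protocols, TRIzol served to isolate the RNA, and a stranded TruSeq kit for mRNA served to prepare the libraries. Per the submitters' processing notes, the build was mm10 and the tools were Cufflinks 2.2.1, TopHat2 2.0.13, SAMtools 1.11 and Bowtie2 2.3.5.1; the sources used here state neither their roles nor the annotation nor how strand was handled. The values the authors deposited were taken as FPKM, from the named tool and the values themselves, with 1 value per symbol. FPKM keeps no counts, so the depth is unknown and no counting interval was set. In WT 3, 27 symbols had become dates and were restored by row. The highest single value of WT 3 was 19268.5 FPKM, against 5306 to 5931 FPKM in the other libraries. All its values summed to 436299 FPKM, against 402832 to 414650 FPKM in the others.

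Genes whose mean over the libraries reached 1 FPKM (13215) were fitted on log2(FPKM + 1) with limma 3.58.1 in R 4.3.3 (variance trend, no covariate, two-sided, Benjamini-Hochberg over all genes). Recovery of known changes was tested on simulated data. With 3 against 3 libraries a permutation test cannot go below 0.1, so none was used. Sums include every member. Named are the C-type members, the 5 highest and the lowest of each other subgroup, and members of at least 0.3 FPKM whose groups did not overlap; Pcdha1, Pcdha6 and Pcdha11 were named after their values were seen. From the lists of other genes, the 3 of smallest p and 4 of the neighbours were named. Members and lists were chosen with earlier results of these data known. Positions come from GENCODE M21 and RefSeq GRCm38.p6. All 58 symbols matched in RefSeq, whereas GENCODE M21 has no model named Pcdha10 and more than a single model named Pcdha11. Diaph1 and Wapl were found under older symbols. Alternatives are given in the closing section.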

Additional observations from a re-analysis of the deposited data

How the results depend on the processing

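In all 17 alternative fits, 0 members were called. The replicate block, run because the labels number both groups from 1 to 3, also gave 0 members and 2 at an unadjusted limma p under 0.05. The main fit had no block because the labels do not say that a number marks a shared litter, batch or day. Deviations of same-numbered libraries correlated at 0.0718, 0.0063 and 0.101, which cannot exclude a pairing. Without CKO 1 the count at an unadjusted limma p under 0.05 was 0 in place of 3, without WT 3 it was 1, without CKO 2, CKO 3 or WT 2 it was 2, and without WT 1 or with sample weights it was 4. Among other genes, 0 of the 32 fixed-list genes tested (34 at a minimum mean of 0.1 FPKM) were called in the 9 alternatives. The Cyfip2 change was -2.29 without a filter, with robust eBayes and without the trend, each above the threshold (limma adjusted p = 0.074, 0.111 and 0.102), and -2.55 to -2.15 with 1 library left out. The log2 ratio of the alpha sum lay between -0.041 and 0.02, that of beta between -0.039 and -0.023 and that of gamma between -0.037 and 0.0045, each moving by less than the spread between libraries. Adding Pcdha7-g to the alpha sum, chosen after seeing the data, gave -0.0056.

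Of 28 named members tested, 13 changed sign in some fit. With sample weights, Pcdhb17 was at 0.018, Pcdhgc3 at 0.00055 and Pcdhgc4 at -0.023. Leaving out each library gave ranges of -0.132 to 0.015 for Pcdha3, -0.014 to 0.127 for Pcdha9, -0.186 to 0.0089 for Pcdhac2, -0.026 to 0.146 for Pcdhb16, -0.131 to 0.044 for Pcdhb17, -0.0047 to 0.150 for Pcdhb22, -0.206 to 0.057 for Pcdhb6, -0.028 to 0.055 for Pcdhga12, -0.051 to 0.202 for Pcdhga4, -0.116 to 0.160 for Pcdhga7, -0.107 to 0.061 for Pcdhgb6, -0.084 to 0.019 for Pcdhgc3 and -0.026 to 0.057 for Pcdhgc4. The cause was not tested. FPKM gives no depth, so no counting error could be set for low members such as Pcdhb1 and Pcdha8.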

Other observations

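Pcdha7-g, a symbol of the alpha region outside the naming pattern of the members, was at 3.03, 1.47 and 2.299 FPKM in CKO 1 to 3 and 1.61, 2.28 and 2.29 FPKM in WT 1 to 3. The CKO libraries spanned the whole WT range.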
